A study of Mus musculus with 38 samples.

Results

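The genes described here are 9 transcripts used as signs of alternatively activated macrophages: Mrc1, Clec10a, Mgl2, Cd163, Folr2, Lyve1, Retnla, Chil3 and Arg1. They were taken by name, as the non-control probes of the array whose gene name is one of these symbols or an older alias of it (Mgl1 for Clec10a, Chi3l3 for Chil3, Xlkd1 for Lyve1), and make up 9 of 29147 gene symbols on the array. These symbols have 11 of the 40628 probes, 1 each except for Retnla and Lyve1, which have 2. Where there are 2, the probe with the higher mean stands for the gene and the other is given beside it.

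Macrophages that meet the cytokines IL-4 and IL-13 signal through IL-4 receptor alpha, Janus kinases and the transcription factor STAT6, and take on a state known as alternative activation, or M2. In lean adipose tissue, resident macrophages carry many of the same transcripts and are associated with tissue upkeep, clearance of debris and control of inflammation, while obesity brings in further macrophages of a more inflammatory kind. The genes differ in role. Mrc1 encodes the mannose receptor, Clec10a and Mgl2 encode galactose-type lectins, Cd163 encodes the scavenger receptor for haemoglobin bound to haptoglobin, Folr2 encodes folate receptor beta, and Lyve1 encodes a receptor for hyaluronan that lymphatic endothelium carries as well. Retnla (also called Fizz1) and Chil3 (Ym1) encode secreted proteins, and Arg1 encodes arginase, which turns arginine into ornithine and urea.

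Stromal vascular cells of epididymal fat, labelled as infiltrating macrophages, were taken from C57BL/6J mice that had entered the diets at an age of 3 to 4 weeks, and their RNA was measured on 38 one-colour arrays. The low fat control diet (LFC, 10% of calories from fat) and the high fat, high sucrose diet (HFC, 60% of calories from fat) have 10 arrays each, at days 6, 10 and 14 (D6 to D14) and weeks 0 to 18 (W0 to W18, every 3 weeks). HF5, HF20 and HF75 have 6 arrays each, at W3 to W18, from mice whose high fat feed carried the botanical formulation KAL-1 at 5, 20 or 75 µg. The series' design text speaks of 3 biological replicates, but there is 1 array per diet and time point here. Whether it holds RNA of 1 animal, of several or of repeated experiments is not given in the sources used here, so every error below is the spread between time points. At W15 and W18 the HF5 and HF20 arrays carry each other's dose in their diet label, and the source name and title were followed.

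A level below is the log2 processed signal of a probe minus the log2 of the 75th percentile of its array, so that 0 is the 75th percentile and a difference of 1 is a doubling. Levels of different genes are not compared, because probes bind with different strength. The 75th percentile itself ran from 25.8 scanner units (HF5 at W12) to 1983, and between 40.1% and 90.6% of spots were well above background. The scanner software marked under 100 of 43803 spots as outliers on 35 arrays, but 922 on HFC D10, 4850 on HFC W12 and 6257 on HF75 W12, and these were left out. The arrays carried macrophage RNA and RNA of other cells. Of 15 general macrophage genes (Adgre1, Cd68, Csf1r and others), 12 to 15 were well above background on each array, but so were 7 to 9 of 9 adipocyte genes, and the adipocyte score (the mean level of the list) ran from -0.98 to 5.14. Mesothelial and epididymal genes covered a wider range, the mesothelial score running from -5.24 (LFC D10) to 3.85. The part of these cells in the results below was not tested. In RNA of mixed cells, fewer macrophages and less of a transcript per macrophage cannot be told apart.

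Of the 9 genes, 8 were well above background on every array on which they were measured, and Arg1 on 28 of 38. Retnla reached the scanner's upper limit on 12 of the 37 arrays that measured it (the HF5 W3 spot was marked as an outlier and left out), so its level there is a lower bound. Its other probe, which shares 50 of 60 bases with the first, was saturated on 5 arrays, and the levels from the 2 probes had a Pearson r of 0.97 over 36 arrays. The probes of Chil3 and its neighbour in the gene family Chil4, by contrast, have no more than 21 identical bases in any ungapped alignment, and those of Clec10a and Mgl2 no more than 18. Probes were compared only with each other, so whether one also binds the other gene's transcript was not tested.

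**Figure D1:**
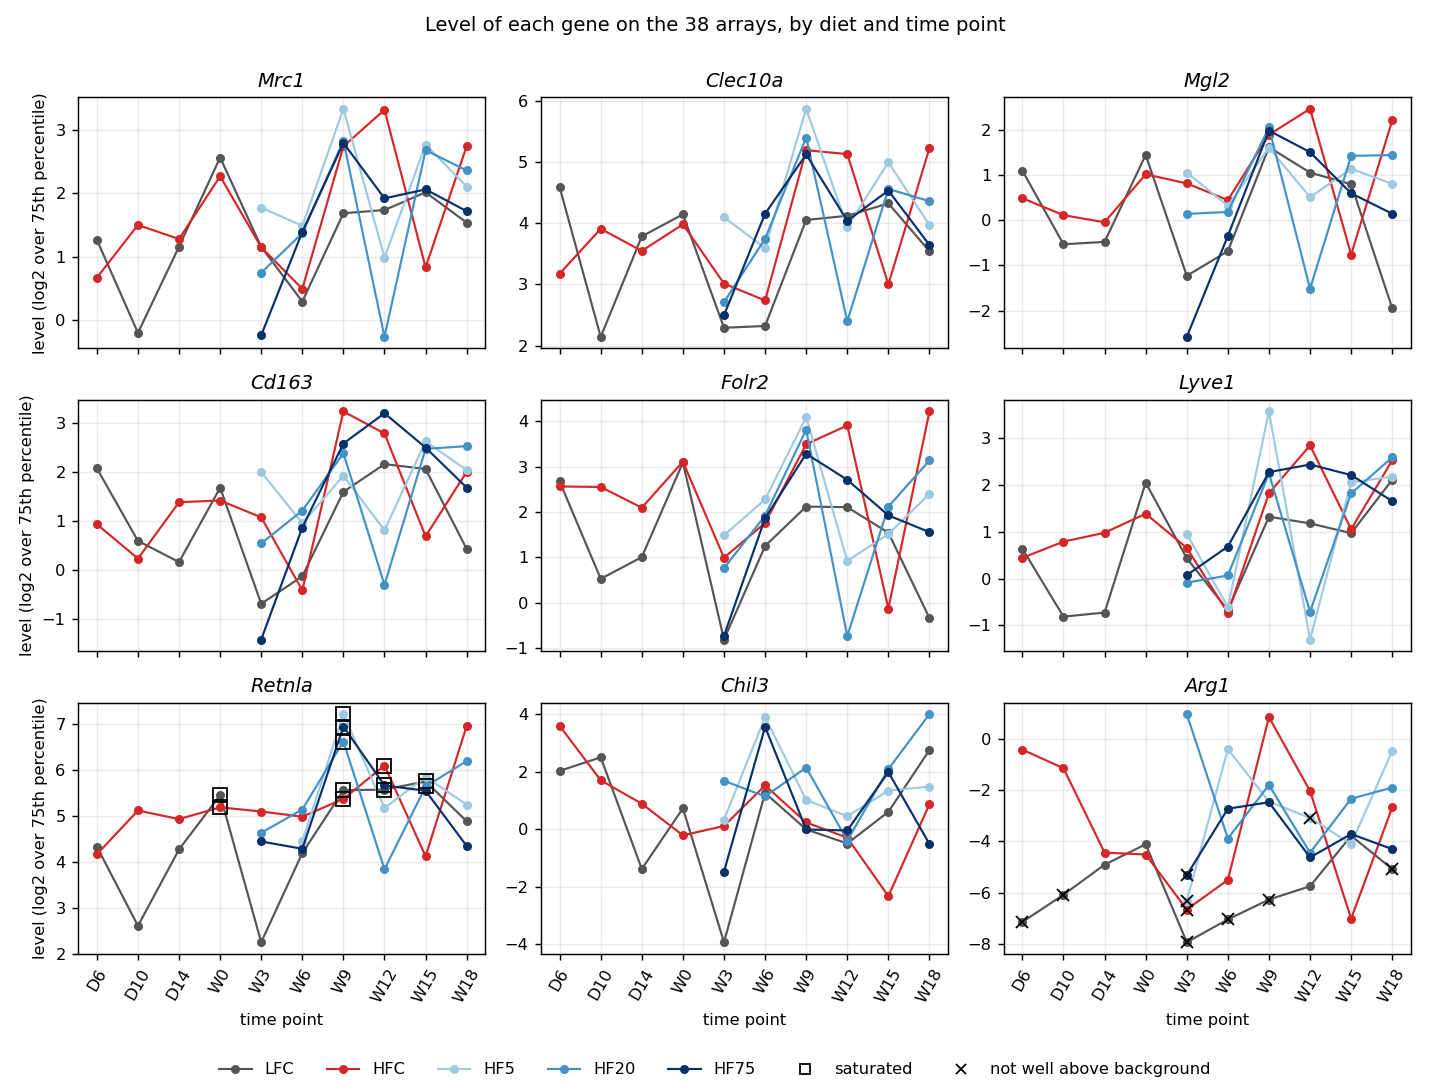
Each panel plots the level of 1 gene (y axis, log2 over the array's 75th percentile, with its own scale) against time point (x axis, in order and not to scale in days), with a line for each diet and a point for each array. Squares mark saturated spots and crosses mark values not well above background. Mrc1, Clec10a, Mgl2, Cd163, Folr2, Lyve1 and Retnla trace a similar course, with the HF20 array of W12 the lowest of its diet. Their W9 levels in HFC, HF5 and HF20 are high, except for Cd163 in HF5 (1.92, with a median of 1.96 in that diet). Chil3 and Arg1 follow courses of their own.

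Over weeks 3 to 18, where all 5 diets have arrays, LFC had the lowest mean level of the 5 diets for 8 of the 9 genes. The exception was Chil3, for which HFC (0.026) was just below LFC (0.038). The share of all probes with LFC lowest is not given, and 7 of the 9 genes varied together over the arrays (below). The count of 8 is therefore not one of separate observations. HF5 was highest for Mrc1, Clec10a, Cd163 and Retnla (over 5 weeks, since its W3 value is missing in HF5), HF20 for Chil3 and Arg1, HFC for Mgl2 and Folr2, and HF75 for Lyve1. Of the 36 gaps between neighbouring diets in these orders, 1 was larger than the smaller of the 2 SDs over weeks, that of Arg1 between LFC and HF75. The order of the diets is therefore a description, with nearly all neighbours inside each other's spread.

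The question of the first comparison is whether the high fat diet alone went with other levels of these genes than the low fat diet. All 9 had a higher mean in HFC than in LFC over the 10 time points, with a median difference of 0.53 log2, against a median of 0.0063 over all 31026 probes tested, of which 50.8% were above 0. None passed the threshold (an adjusted p of 0.05, limma with time point as a block), nor did any probe of the array (0%). At an unadjusted p under 0.05, 2 of the 9 genes were higher (Arg1 and Folr2), beside 4.57% of all probes higher and 4.52% lower, and none of the 9 was lower. Markers of other cells differed in the same comparison, none past the threshold. All 7 mesothelial genes lay above 0 (median 1.81 log2), as did the 7 epididymal genes tested (1.90), while the 7 endothelial genes (-0.59) and 8 of 9 adipocyte genes (-0.59) lay below it. The mesothelial score was higher in HFC by 1.77 ± 3.87 (SD, n = 10), at 7 of 10 time points, and the epididymal score by 2.37 ± 5.10, at 6. At D6 and D10 the mesothelial score was 3.85 and 2.84 in HFC against -3.63 and -5.24 in LFC. The epididymal score was 2.14 and 4.06 against -6.56 and -6.63. The part of these cells in the result was not tested.

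Arg1 had the largest difference, though not under normexp background correction with quantile scaling, and 6 of its 10 LFC values were not well above background. In LFC its level was -7.93 at the lowest (W3), -5.91 at the median and -3.78 at the highest (W15). In HFC it ran from -7.01 (W15) through a median of -3.56 to 0.84 (W9), and was well above background on 9 of 10. The ranges overlap, since 5 HFC arrays (D14, W0, W3, W6 and W15) lay inside the LFC range. HFC was higher at 8 of 10 time points, by 7.11 log2 at W9, 6.71 at D6, 4.93 at D10 and 3.71 at W12, and lower at W15 by 3.23 and at W0 by 0.40. At W9, D6 and D10 the LFC spot was not well above background, so the size of those 3 differences is not measured on the LFC side. The mean difference was 2.45 log2 (SE 0.91, 95% confidence interval 0.46 to 4.44, unadjusted p 0.020, adjusted p 0.545, limma). The size changed with the processing: normexp background correction with quantile scaling gave 0.91, and 0.93 for Folr2. The part of dim spots in this change was not tested. Without D6 and D10 the mean difference of Arg1 was 1.61 (unadjusted p 0.113), and without W9 and W12 1.71 (unadjusted p 0.103), by limma in each case. The probe that gives these values has the following sequence, which is shown because this gene is 1 of the 2 with an unadjusted p under 0.05 between the diets.
Arg1 probe: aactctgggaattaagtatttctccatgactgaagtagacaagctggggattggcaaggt

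Folr2 came next. Its level in LFC was -0.81 at the lowest (W3), 1.40 at the median and 3.09 at the highest (W0), and in HFC -0.13 (W15), 2.56 and 4.21 (W18). HFC was higher at 8 of 10 time points, by as much as 4.55 log2 at W18, and lower at D6 and W15. The mean difference was 1.14 log2 (SE 0.47, 95% confidence interval 0.10 to 2.17, unadjusted p 0.034, adjusted p 0.545, limma). Leaving out W18 took it to 0.76. The Folr2 probe is shown for the same reason as that of Arg1.
Folr2 probe: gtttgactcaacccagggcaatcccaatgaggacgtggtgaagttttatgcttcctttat

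Among the other surface receptors, the mean difference was 0.75 log2 (SE 0.46) for Mgl2, 0.53 (SE 0.26) for Lyve1, 0.38 (SE 0.29) for Mrc1, 0.36 (SE 0.33) for Clec10a and 0.34 (SE 0.35) for Cd163. None of these 5 had an unadjusted p under 0.05 in limma. Lyve1 was the nearest (unadjusted p 0.065, higher at 7 of 10 time points), and its other probe, which is dimmer, gave 0.88 (SE 0.34, unadjusted p 0.026, adjusted p 0.545, limma). Of the secreted proteins, Retnla differed by 0.72 (SE 0.41), or 0.37 (SE 0.39) by its other probe, and Chil3 by 0.20 (SE 0.58). Chil3 was as much as 4.04 log2 higher in HFC at W3 and 2.93 lower at W15.

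The direction differed between time points. HFC was higher for 9 of 9 genes at W12, for 8 of 9 at D14, W3, W9 and W18, and for 7 of 9 at D10 and W6. It was higher for only 2 of 9 at D6, and for 1 of 9 at W0 and at W15. At W15 the median difference was -1.56 log2, and only Lyve1 lay above 0. The HFC array of W15 also had the lowest general macrophage score of the 10 HFC arrays, 0.58 against 1.38 for LFC of that week. The size of the differences between arrays of 1 diet can be read at D14 and W0, which fall on the same elapsed day by the study's conversion of weeks to days. Between these LFC arrays, the 9 genes differed by 0.36 to 2.78 log2 (median 1.51), each higher at W0, and between the HFC arrays by a median of 0.43, with 7 higher at W0.

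**Figure D2:**
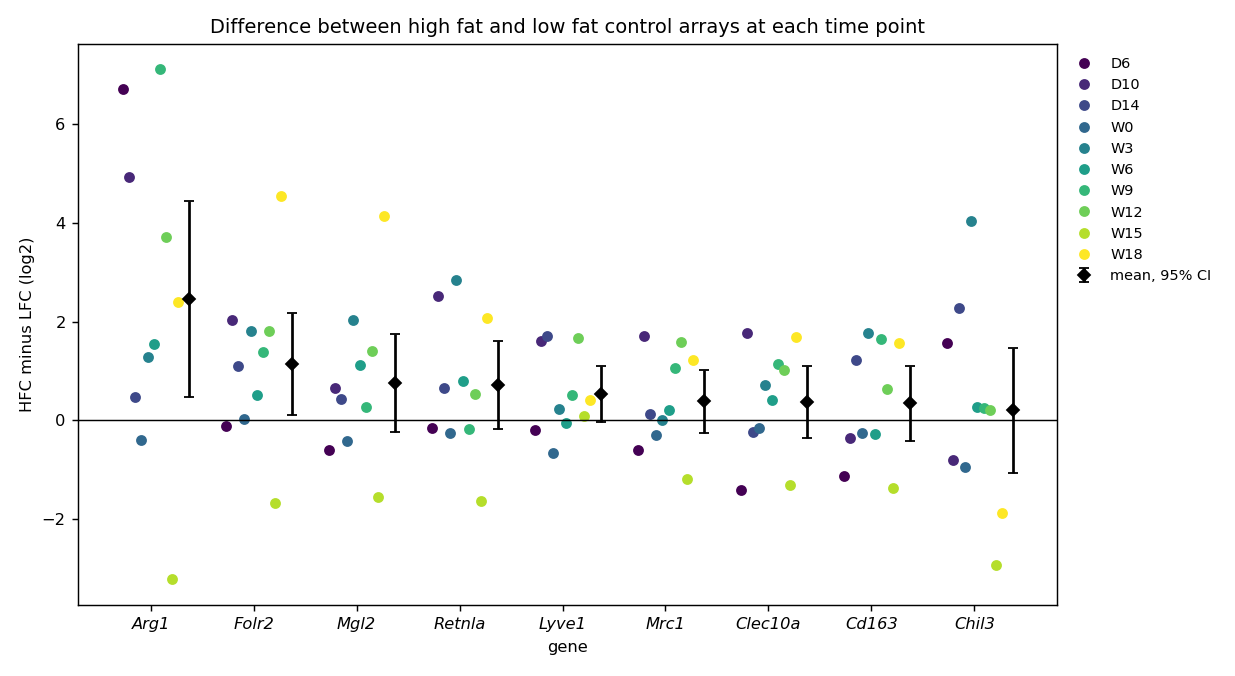
HFC minus LFC in log2 (y axis) for the 9 genes (x axis), ordered by their mean. Points are the 10 time points, coloured from D6 to W18, and diamonds with bars are the limma estimate with its 95% confidence interval. The means are all above 0, the points of W15 lie below 0 for 8 of the 9 genes, and the interval excludes 0 before adjustment for Arg1 and Folr2.

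Macrophage genes in general were also higher in HFC. Each of the 15 general macrophage genes lay above 0 (6 at an unadjusted p under 0.05, 0 adjusted, limma), with a median of 0.57 log2, and their score was higher in HFC by 0.54 ± 0.80 (SD, n = 10), at 8 of 10 time points. Set against that score on the same array, the difference of Arg1 was 1.91 ± 2.99 (SD, n = 10) and that of Folr2 0.60 ± 1.11, each above 0 at 8 of 10 time points. The same measure was 0.21 ± 1.06 for Mgl2 and 0.17 ± 1.17 for Retnla. For the other 5 genes it lay below 0, from -0.013 ± 0.76 for Lyve1 to -0.34 ± 1.93 for Chil3. Each SD is larger than its mean. Inflammatory macrophage genes (Tnf, Il1b, Nos2 and others) had a median of 1.31 log2 in this comparison, with 12 of 12 above 0, 1 at an unadjusted p under 0.05 and 0 adjusted. The score of that list was higher in HFC by 1.06 ± 2.10 (SD, n = 10), at 8 of 10 time points. Its largest difference was 6.58, at W12 (1.46 against -5.12). Of 5 lymphatic endothelial genes, which bear on Lyve1, 3 were above 0 (2 at an unadjusted p under 0.05, 0 adjusted) with a median of 0.30 log2, and the Pearson r of their score with the Lyve1 level over the 38 arrays was 0.094. The Lyve1 level had an r of 0.53 with the mesothelial score and of 0.56 with the general macrophage score. The part of mesothelial cells in the Lyve1 level was not tested.

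The other genes of the pathway were taken from lists drawn up by known function. Like the members and the other lists, they were chosen with earlier results of these data known. The counts above and below 0 are therefore descriptions. All 16 receptor and signalling genes of IL-4 and IL-13 were tested between HFC and LFC: 12 lay above 0 and 4 below, with a median of 0.16 log2, and 1 was lower at an unadjusted p under 0.05. Of 20 other alternative activation genes tested, 17 lay above 0, with a median of 0.61 log2, and 4 were higher at an unadjusted p under 0.05. None of either list passed after adjustment. The smallest p values, none past the threshold, belonged to Cd209g, a lectin of the DC-SIGN family (1.25 log2, SE 0.49), Il1rn, the antagonist of the IL-1 receptor (1.49, SE 0.58), and Pparg, a nuclear receptor of adipocytes that also acts in alternative activation (-1.14, SE 0.45). Each of them had an adjusted p of 0.545 (limma). Stat6 itself was well above background on 38 of 38 arrays, within a range of -0.38 to 1.49, and Il4ra, the receptor chain shared by both cytokines, on the 37 arrays that measured it.

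The next question is whether levels differed once the formulation was added to the feed. Between weeks 3 and 18, no gene of the 9 and no probe of the array passed in HF5, HF20, HF75 or their mean against HFC (0% of 33709 probes in each, limma). At an unadjusted p under 0.05, 1 of the 9 genes was higher in HF20 (Chil3), beside 1.3% of all probes higher and 0.231% lower, and none was lower. None of the 9 reached it in HF5, HF75 or the mean of the doses, where 4.73%, 1.95% and 1.71% of all probes did. The median over the 9 genes was 0.16 log2 in HF5, -0.19 in HF20, -0.052 in HF75 and -0.11 for the mean of the doses, against -0.026, 0.044, 0.038 and 0.013 over all probes. These contrasts share the 6 HFC arrays. Scan day was not the same for all diets within every week. HFC differed in it from HF5, HF20 and HF75 at W9, from HF20 and HF75 at W3 and W18, and from HF75 at W6. Week as the block does not remove this, so dose and scan day are partly mixed in these contrasts. A fit with scan day as the block is among the alternatives below.

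Chil3 had the largest difference in HF5 and HF20. Its 6 HFC values over these weeks were 0.12 at W3, 1.53 at W6, 0.24 at W9, -0.29 at W12, -2.32 at W15 and 0.88 at W18. In HF20 it was 1.69, 1.15, 2.15, -0.39, 2.10 and 4.01 at the same weeks, above HFC at 4 of 6. In HF5 it was 0.34, 3.90, 1.03, 0.46, 1.35 and 1.49, above HFC at 6 of 6, and in HF75 -1.46, 3.57, -0.0023, -0.036, 1.99 and -0.51, above HFC at 3 of 6. The diets overlap in each case. The difference from HFC was 1.76 log2 in HF20 (SE 0.77, 95% confidence interval 0.17 to 3.34, unadjusted p 0.031, adjusted p 0.9999, limma), 1.40 in HF5 (SE 0.77, unadjusted p 0.080, adjusted p 0.9995) and 0.57 in HF75 (SE 0.77). The mean of the doses gave 1.24 (SE 0.63, unadjusted p 0.059, adjusted p 0.9999, limma). Of the weeks, W15 moved it the most, with HFC at its lowest there. Without W15, HF20 gave 1.23 (unadjusted p 0.146), and the mean of the doses gave 0.66 (unadjusted p 0.328) and HF75 turned to -0.18. With the dose taken from the diet label, HF20 gave 1.21 (unadjusted p 0.121) and HF5 1.95 (unadjusted p 0.017), with no probe past the threshold in either.

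Arg1 differed from HFC by 1.03 log2 in HF5 (SE 1.12), by 1.61 in HF20 (SE 1.12) and by -0.020 in HF75 (SE 1.12). Its single weeks scatter widely: HF20 was 7.62 above HFC at W3 (0.96 against -6.66, the latter not well above background) and 2.65 below it at W9. The surface receptors and Retnla differed as follows. Over the 3 doses, the differences from HFC ran from -0.27 to 0.20 for Mrc1, from -0.19 to 0.36 for Clec10a, from -0.090 to 0.16 for Cd163, from -0.37 to 0.19 for Lyve1 and from -0.23 to -0.065 for Retnla, with SEs of 0.42 to 0.58. The -0.065 of Retnla is the fitted value in HF5, where W3 is missing. The mean of its 5 measured weekly differences in HF5 was 0.080, and its other probe gave 0.073. Mgl2 (-0.27, -0.55 and -0.96 in HF5, HF20 and HF75, SE 0.63) and Folr2 (-0.26, -0.54 and -0.61, SE 0.65) were lower in every dose, none with an unadjusted p under 0.05 (limma), and whether the doses differ from each other was not tested. For the mean of the doses, Mgl2 lay below HFC at 5 of 6 weeks. In HF75 its lowest difference, -3.39, came from the dim W3 array described below.

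Here too the direction differed between weeks. At W15 all 9 genes were higher in each of HF5, HF20 and HF75 than in HFC, with medians of 1.93, 1.85 and 1.53 log2. At W12 the median was -1.95 in HF5, -3.09 in HF20 and -0.96 in HF75, with 1, 0 and 2 of 9 genes higher. HF75 was also lower for 8 of 9 genes at W3 and for 9 of 9 at W18. Its W3 array was dim, with a 75th percentile of 88.4 scanner units against 1042 for HFC of that week. On it 46.3% of spots were well above background, against 62.6%. The general macrophage score of that array was 0.33, the lowest of HF75. HFC had its highest general macrophage score at W12 (2.88) and its lowest at W15. Left out of the fit, W12 turned the median of the 9 genes to 0.59 in HF5, 0.34 in HF20 and 0.36 for the mean of the doses, and gave -0.047 in HF75. The HFC and HF75 arrays of that week are those with the many outlier spots. The HF20 and HF5 arrays of W12 had scores of -0.21 and 0.59, and the HF5 array of W12 was the dimmest of all. The score itself differed from HFC by 0.0072 ± 1.32 in HF5, -0.17 ± 1.61 in HF20 and -0.41 ± 1.08 in HF75 (SD, n = 6 weeks). Relative to the score, Chil3 stood 1.43 ± 1.13 log2 above HFC for the mean of the doses, at 5 of 6 weeks. In the same terms Arg1 stood 1.06 ± 2.74 above it, and the other 7 genes lay between -0.40 (Mgl2) and 0.23 (Clec10a).

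**Figure D3:**
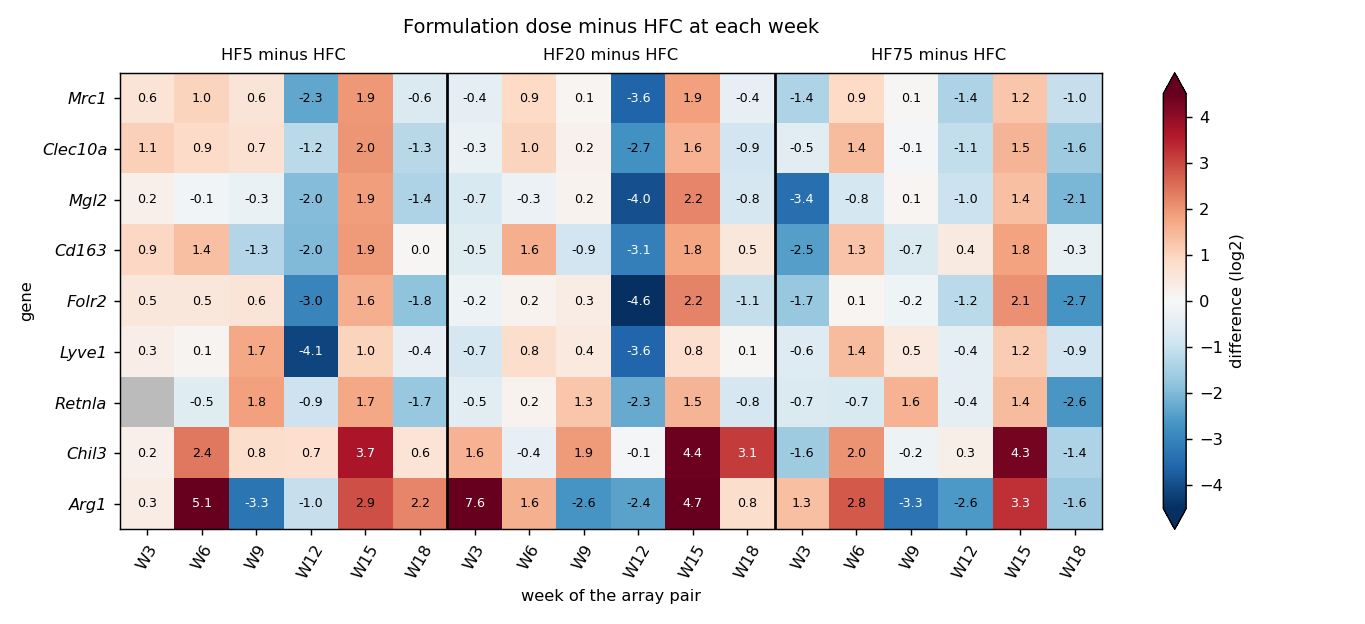
Difference between the array of a dose and the HFC array of the same week (colour and printed value, log2), with the 9 genes as rows and the weeks of HF5, HF20 and HF75 as columns. Grey marks a spot left out as an outlier. The columns of W15 are positive throughout and those of W12 mostly negative, and Chil3 is positive at every week of HF5.

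Among the pathway genes, none passed in any dose. Of the 16 receptor and signalling genes, 7 lay above 0 in HF5, 8 in HF20 and 3 in HF75, and of the 20 other alternative activation genes 16, 11 and 10. The share of all probes above 0 was 47.3% in HF5, 56.3% in HF20 and 54.1% in HF75. The smallest p values in HF20 belonged to Chil4 (1.60 log2, SE 0.74, unadjusted p 0.040, limma), the near relative of Chil3, to Igf1, a growth factor (-0.84, SE 0.41), and to Pparg (-1.19, SE 0.71). In HF5 they belonged to Il13 (-0.67, SE 0.39), Tgm2, which encodes a transglutaminase (0.52, SE 0.31), and the kinase Tyk2 (-0.81, SE 0.54), and in HF75 to the coactivator Ppargc1b (-0.95, SE 0.47), the kinase Jak1 (-0.61, SE 0.35) and the histone demethylase Kdm6b (-0.94, SE 0.56). For the mean of the doses they were those of Chil4 (1.04, SE 0.60), Igf1 (-0.56, SE 0.33) and Tgm2 (0.35, SE 0.25). Chil4 was 1 of the 438 probes higher in HF20 at an unadjusted p under 0.05.

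Change with time was asked within each control diet, as a slope per week of elapsed time. Within LFC, 8 of the 9 genes were tested, since Arg1 was well above background on too few arrays. None passed (0% of 28466 probes, limma), and none had an unadjusted p under 0.05, beside 3.89% of all probes. The slopes ran from -0.039 log2 per week for Folr2 to 0.093 (SE 0.048, unadjusted p 0.078, limma) for Retnla. Of the 8 slopes in LFC, 6 lay above 0, beside 49.2% of all probes, with Lyve1 at 0.080. Within HFC none of the 9 passed (0% of 30872 probes) or had an unadjusted p under 0.05, beside 7.87% of all probes. Of all probes, 53.9% had a slope above 0 in HFC. The slope was above 0 for each of the 6 surface receptors and for Retnla, between 0.025 (Folr2) and 0.082 (Lyve1, SE 0.040, unadjusted p 0.068, limma). It was below 0 for Chil3 (-0.12, SE 0.058, unadjusted p 0.064, limma) and Arg1 (-0.037, SE 0.12). Chil3 in HFC was at its highest on the earliest array, 3.60 at D6, and at 1.71 on D10. Age, slide and scan day go with time in these slopes and cannot be told apart from it.

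Of the pathway lists, 6 of 16 receptor and signalling genes and 4 of 19 others had a slope above 0 in LFC, and 9 of 16 and 6 of 20 in HFC, none past the threshold. Ccl24, an eosinophil-attracting chemokine, had 1 of the 3 smallest p values in both diets, at 0.091 log2 per week in LFC (SE 0.038, unadjusted p 0.034, limma) and 0.12 in HFC (SE 0.057). Tyk2 was also among them in both, at -0.13 (SE 0.060) and -0.065 (SE 0.031). The remaining place was held by Clec7a, the beta-glucan receptor dectin-1, in LFC (-0.054, SE 0.032) and by Chil4 in HFC (-0.12, SE 0.065).

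The courses of the 9 genes over the arrays were compared with each other and with all probes that were well above background on at least 0.5 of the arrays. These correlations are descriptions. The arrays share diets, time points, scan days and a common scaling, so no p is given. Mrc1, Clec10a, Mgl2, Cd163, Folr2, Lyve1 and Retnla varied together: their 21 pairs had Pearson r between 0.59 (Mgl2 and Lyve1) and 0.91 (Mrc1 and Clec10a), with a median of 0.79. With the mean of each diet subtracted the range was 0.61 to 0.91. Arg1 had r between 0.25 and 0.50 with these 7, and Chil3 between 0.051 (Lyve1) and 0.35 (Folr2), with a median of 0.19. Arg1 and Chil3 had an r of 0.49 with each other. The correlation of each gene with array brightness lay between -0.019 (Chil3) and 0.33 (Cd163).

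**Figure D4:**
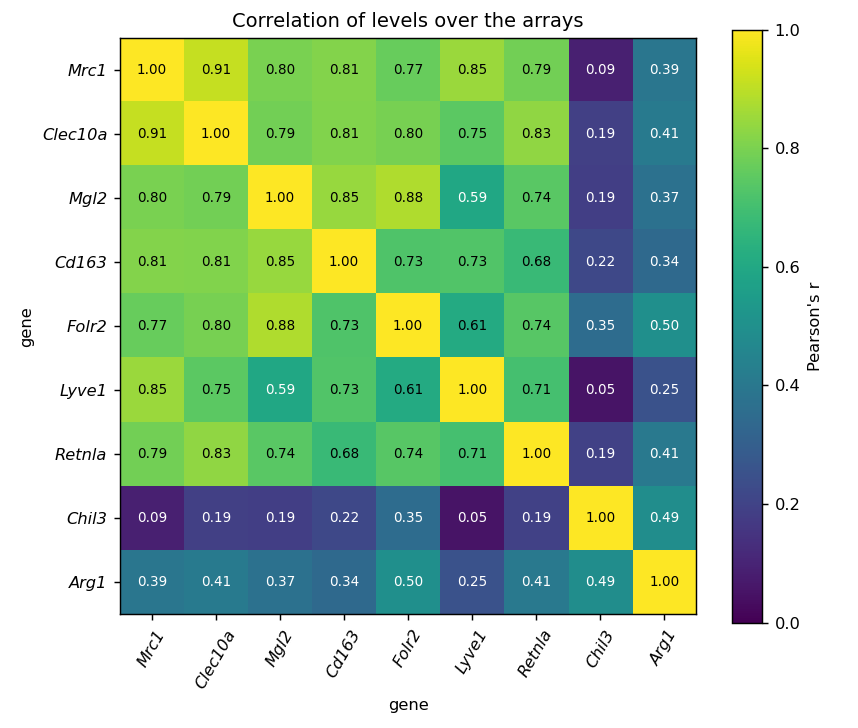
Pearson's r between the levels of each pair of genes over the arrays (38, or 37 for pairs with Retnla), as colour and number. The 7 genes from Mrc1 to Retnla form a block with r from 0.59 to 0.91, and the Chil3 and Arg1 rows reach no more than 0.50 outside their own diagonal.

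The genes most like each member fell along the same lines. Among the genes closest to Mrc1 were Clec10a (r 0.91) and F13a1, the A subunit of coagulation factor XIII (0.89). Clec10a was closest to Mrc1, Ccl24 (0.87) and the lectin Cd209d (0.86). Retnla was closest to Cd209d (0.89), Ccl24 (0.86) and Clec10a (0.83). Mgl2 was closest to F13a1 (0.90), Folr2 (0.88) and the ficolin Fcna (0.85), and Cd163 to F13a1 (0.89), the protease Pcsk6 (0.86) and Mgl2 (0.85). Among those closest to Lyve1 were Efemp1, an extracellular matrix glycoprotein (0.86), and Mrc1 (0.85). The nearest genes to Folr2 were Csf1r, the receptor for the growth factor of macrophages (0.94), Cd68 (0.94) and Fcna (0.94). Csf1r and Cd68 are on the general macrophage list, and the r of Folr2 with the score of that list was 0.87 (Spearman 0.84, and 0.84 without HF20 W12 and HF5 W9). For the other genes of the block, r with that score ran from 0.56 (Lyve1) to 0.73 (Mgl2).

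Chil3 was closest to other genes. Those nearest it over the 38 arrays were Chil4 (r 0.93), S100a8, a calcium-binding protein abundant in neutrophils and monocytes (0.86), and Slfn4, a myeloid schlafen gene (0.80). The r with S100a8 was 0.82 by Spearman's measure and 0.79 without LFC W3 and HFC W15, the arrays farthest from the median. With the general macrophage score Chil3 had an r of 0.50. With the score of the IL-4 and IL-13 receptor and signalling genes it had 0.69, where the other members ran from 0.082 (Lyve1) to 0.51 (Folr2). Chil3 also had an r of 0.56 with the score of B cell genes and 0.55 with that of T cell genes. Its low point in the series, LFC at W3 (-3.92), was also that of S100a8 (-5.35). In HF5 and HF75 both genes had their highest level at W6 and in HF20 and LFC both at W18, while in HFC Chil3 was highest at D6 and S100a8 at W6. Arg1 was closest to the acute phase gene Saa1 (r 0.74, and 0.67 without HFC W9 and HFC D6), the adenosine receptor Adora2b (0.73) and coagulation factor F10 (0.73).

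**Figure D5:**
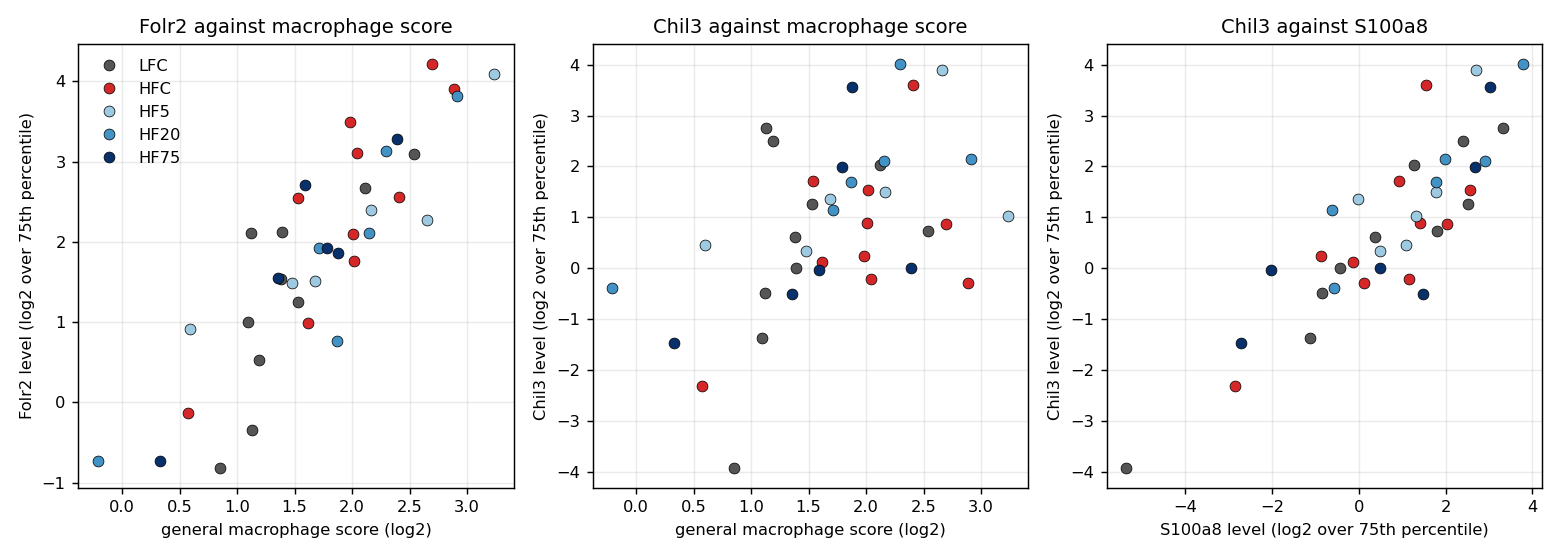
Level of Folr2 (left) and Chil3 (middle) against the general macrophage score of the same array, and level of Chil3 against that of S100a8 (right), all in log2, with 1 point per array coloured by diet. Folr2 follows the score (r 0.87), Chil3 less so (r 0.50), and Chil3 follows S100a8 (r 0.86).

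Since several of these genes are textbook targets of STAT6, the bases before their transcription starts were searched for TTC and GAA with 4 bases between them, the spacing that STAT6 prefers, and for TTC and GAA with 3 bases between them, which other STAT proteins prefer. Each pattern reads the same on both strands and the 2 cannot begin at the same base. Promoters from RefSeq (GRCm38.p6) covered 6 of the 9 genes (Mrc1, Chil3, Retnla, Mgl2, Cd163 and Folr2), and the 250 bases before the start were used. The longer pattern was found in 5.85% of all 32851 promoters and, among these genes, once in Retnla. The shorter was found in 7.02% and, among these genes, once in Chil3. A match is a description of the letters, not a binding site. Both promoters are shown with the match in capitals, because Retnla lies inside the block of genes that varied together and Chil3 outside it. That of Retnla lies at chr16:48842359-48842608 on the plus strand and that of Chil3 at chr3:106167565-106167814 on the minus strand, each written 5′ to 3′ along the gene.
Retnla promoter: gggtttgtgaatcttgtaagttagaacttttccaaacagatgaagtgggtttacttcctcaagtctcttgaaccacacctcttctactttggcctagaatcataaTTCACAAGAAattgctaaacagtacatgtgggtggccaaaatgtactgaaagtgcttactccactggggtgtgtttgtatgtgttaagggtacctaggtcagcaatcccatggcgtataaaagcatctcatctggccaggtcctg
Chil3 promoter: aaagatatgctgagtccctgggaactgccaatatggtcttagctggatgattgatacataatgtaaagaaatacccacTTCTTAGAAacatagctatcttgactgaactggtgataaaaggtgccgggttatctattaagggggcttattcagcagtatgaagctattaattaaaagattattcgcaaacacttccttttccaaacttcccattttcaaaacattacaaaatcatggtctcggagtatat
The match in Retnla, TTCACAAGAA, begins 145 bases before the start, and that in Chil3, TTCTTAGAA, begins 172 bases before it.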

How the data were processed

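RNA of 38 samples was measured on one-colour Agilent arrays. Per the file headers, the deposited scanner files hold intensity values: a processed signal that Feature Extraction corrected for background, and mean foreground and median background intensity values, none normalised between arrays. The submitters' processing notes name Agilent Feature Extraction 9.1. The deposited table of the authors (GeneSpring GX) holds log2 ratios of each array to LFC of the same time point and served as an alternative.

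From the scanner files, control and outlier spots were left out, log2 processed signals were shifted by the array's 75th percentile, and spots of a probe were averaged. Saturated spots kept their value. Symbols came from RefSeq by accession (28136 probes), symbol (4982) or synonym (1406), and 6104 probes kept the file's name. Probes had to be well above background in at least 0.5 of the arrays of some diet and were tested with limma 3.58.1 in R 4.3.3 (two-sided, Benjamini-Hochberg over all probes), with time point or week as a block, HFC and LFC alone over 10 time points and all 5 diets over weeks 3 to 18. On simulated data for HFC minus LFC, with 50 probes for each size among 31026, a shift of 1 log2 was called for 42% of probes, of 2 for 84% and of 3 or 4 for 100%, with 12 false calls. The shifted probes came from those well above background on a larger share of these arrays than Arg1 was. The simulated noise was independent between arrays and probes. These rates therefore do not apply to Arg1 and may be too high for the other genes. The number of arrays limits the precision, and p-values measure only the spread between these arrays.

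The members and the gene lists were chosen with earlier results of these data known. All 9 members are named in every comparison, pathway genes are counted and the 3 of smallest p named, and the 3 genes of highest Pearson r are named for each member, except for an item that is not reported here. Alternatives were other scaling and background correction, other filters, leaving out each time point, no replicate block, slide, scan day or brightness in the model, the methods' t-test, the deposited table, the other dose label and the other probe.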

Additional observations from a re-analysis of the deposited data

Results flagged for a closer look

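Of 55 groups (11 probes in 5 diets), 2 had a value set apart from the rest of its group by Dixon's ratio, and chance alone gives about 1 in 20 groups. Chil3 in HF5 was highest at W6, at 3.90, with the next array at 1.49. The other probe of Lyve1 in HF75 was lowest at W3, at -5.51, with the next array at -2.01, and was not well above background there. The brighter Lyve1 probe on that array gave 0.07.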

How the results depend on the processing

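Over 117 alternative fits, no member passed the threshold in any (lowest adjusted p 0.378), and the count of probes past it stayed at 0 except for the slope within HFC without W18, which gave 1 probe, not a member (leaving out each time point gave 0 to 1). Counts at an unadjusted p under 0.05 ran from 1099 to 3963 in HFC minus LFC, from 166 to 1997 in HF5, from 64 to 1019 in HF20, from 220 to 1459 in HF75 and from 99 to 1009 for the mean of the doses. The median of the members in HFC minus LFC stayed above 0, between 0.39 and 0.66 log2, and without the replicate block, that is with time point left out of the model, it was 0.53. Of 62 member values, 31 kept their sign under every alternative run, among them Arg1 and Folr2 in HFC minus LFC and Chil3 in HF5 and HF20. Arg1 in HFC minus LFC lost its unadjusted p under 0.05 with brightness as a covariate (1.79, p 0.179, limma) and without D6 and D10 or W9 and W12 together, and Folr2 with the same covariate (0.89, p 0.201, limma), without the replicate block (1.14, p 0.052), with the methods' t-test, without any 1 of D10, D14, W3, W9, W12 and W18, and without D6 and D10 or W9 and W12 together. Chil3 in HF20 lost it without W9, W15 or W18, with the methods' t-test, with the dose from the diet label, with scan day as the block and without the replicate block (1.76, p 0.067). The cause of these changes was not tested. The other 31 member values turned sign somewhere.

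Leaving out single time points turned the sign of these differences, given as lowest to highest in log2. For HFC minus LFC it was Chil3 -0.22 to 0.55. For HF5 they were Mrc1 -0.15 to 0.71, Retnla -0.49 to 0.29, Mgl2 -0.70 to 0.064, Cd163 -0.19 to 0.59, Folr2 -0.64 to 0.29 and Lyve1 -0.62 to 0.56. For HF20 they were Mrc1 -0.68 to 0.41, Retnla -0.42 to 0.34, Clec10a -0.54 to 0.32, Mgl2 -1.10 to 0.13, Cd163 -0.46 to 0.51, Folr2 -1.09 to 0.28 and Lyve1 -0.61 to 0.26. For HF75 they were Arg1 -0.68 to 0.64, Chil3 -0.18 to 0.99, Retnla -0.60 to 0.24, Clec10a -0.37 to 0.25, Cd163 -0.36 to 0.50 and Lyve1 -0.051 to 0.41. For the mean of the doses they were Mrc1 -0.47 to 0.36, Retnla -0.48 to 0.19, Clec10a -0.29 to 0.38, Cd163 -0.34 to 0.34, Folr2 -0.96 to 0.028 and Lyve1 -0.36 to 0.38. For the slope in LFC they were Chil3 -0.039 to 0.090, Mgl2 -0.051 to 0.054 and Folr2 -0.059 to 0.015. For the slope in HFC they were Arg1 -0.088 to 0.055 and Folr2 -0.043 to 0.10. Without the replicate block, Retnla in HF5 became 0.15. With the methods' t-test, Retnla in HF5 became 0.15. From the deposited table, Retnla in HF5 became 0.053. With the dose from the diet label, Retnla in HF5 became 0.089. By the other probe, Retnla in HF5 became 0.073, Retnla in HF20 became 0.067 and Lyve1 in HF75 became -0.54. With brightness as a covariate, Mgl2 in HF5 became 0.17, Folr2 in HF5 became 0.11, Lyve1 in HF5 became 0.16, Mrc1 in the mean of the doses became 0.025 and Lyve1 in the mean of the doses became 0.067. With scan day as the block, Cd163 in HF20 became 0.29 and Clec10a in the mean of the doses became -0.064. With slide as a random block, Arg1 in HF75 became 0.013 and Cd163 in HF75 became -0.013. With normexp and quantile scaling, Cd163 in HF75 became -0.0032 and Clec10a in the mean of the doses became -0.053. With quantile scaling, Clec10a in the mean of the doses became -0.028.

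Arg1 could not be tested under the filter on every array. A saturated Retnla spot gives a lower bound of its level, so differences that involve one can be too small or too large, and dim Arg1 spots limit the differences of Arg1.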
